A study of Mus musculus with 9 samples.

Results

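In stem and progenitor cells of mice that lack the chromatin protein DEK, 3252 regions carried a called peak of the acetylation mark H3K27ac where cells with DEK had none, each on a stretch marked by H3K4me3 in both genotypes. They are called the cKO-only promoters below for their position. Of them, 91.4% lay within 1 kb of a protein-coding gene's start, or of either end where no start was listed. They were found by joining H3K27ac peaks of both genotypes that overlapped by at least 1 bp on chromosomes 1 to 19, which gave 16611 regions. Regions with a cKO peak and no fl peak were then kept where they overlapped an H3K4me3 region formed by overlapping peaks of both genotypes. The regions were chosen by the H3K27ac calls themselves, so the presence of acetylation in cKO and its absence in fl are a description of the regions and not a result.

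The series asks where DEK sits on chromatin and which active marks differ once it is lost. It holds CUT&Tag peak lists, in which an antibody guides a transposase that cuts and tags the DNA beside the bound mark. H3K27ac and H3K4me3 were profiled in about 50000 sorted LSK cells (Lin-Sca-1+c-Kit+, the bone marrow gate of stem and early progenitor cells), with 1 library per genotype and mark. H3K9ac (1 library per genotype) and DEK itself (3 libraries, fl only) were profiled in about 20000 HSC, gated as Lin-Sca-1+c-Kit+CD48-CD150+. The cKO mice carried Dekfl/fl with Tie2-Cre, and the fl mice carried Dekfl/fl without Cre. All were C57BL/6 mice 12 weeks old in the homeostatic state. The Tie2 promoter drives Cre in endothelial cells as well as in the blood lineage, so the bone marrow vessels around the cells may also lack DEK. With 1 library per genotype and mark there is no replicate check of any difference between cKO and fl, and no test was run.

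The cKO H3K27ac list was the longer one, with 15422 peaks on chromosomes 1 to 19 against 9774 in fl. The H3K4me3 lists were close in length, with 9863 peaks in cKO and 10199 in fl. The lists give no read counts, so the depth of each library is unknown, and deeper sequencing or a lower background in the cKO H3K27ac library cannot be told apart from more acetylated places. Each main value is therefore also given with both H3K27ac lists reduced to the 10494 peaks with the highest −log10 q, the length of the whole fl list.

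H3K4me3 is placed at promoters by SET1 and MLL enzymes and marks genes that are active or ready for transcription. H3K27ac is written chiefly by CBP and p300 at active promoters and enhancers and is removed by histone deacetylases, some of which act with corepressors such as NCOR1. DEK is an abundant chromatin protein that binds DNA and histones, and in blood stem cells it has been linked to quiescence.

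Of the 6889 H3K27ac regions with a cKO but no fl peak, 3252 lay on shared H3K4me3 (47.2%, 95% exact Clopper-Pearson interval 46.0 to 48.4). Of the 8519 regions with peaks of both genotypes, 4277 did so (50.2%), and of the 1203 fl-only regions, 66 did so (5.49%, 4.27 to 6.93). Of all H3K27ac regions, 41.5% were cKO only and 7.24% fl only. These intervals cover counting error only, and regions are not replicates of a genotype. Seen from H3K4me3, 3099 of the 9142 shared regions held a cKO-only H3K27ac region (33.9%), 4138 held a region of both genotypes and no cKO-only one (45.3%), 1856 held none (20.3%), and 49 held fl-only acetylation (0.536%). With H3K27ac lists of equal length the cKO-only promoters numbered 2095, all of which overlap one of the 3252, against 356 fl-only regions on shared H3K4me3. At that length 73.0% of cKO-only regions and 13.5% of fl-only regions lay on shared H3K4me3. Of the 3252, 89 had a fl H3K27ac peak within 500 bp (2.74%), and 366 had one within 10 kb (11.3%).

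Promoter sequences are shown for 6 genes that anchor the results: Sec22c and Egln2 among the strongest cKO-only promoters, Akt1 and Ncor1 among the genes the study names, Cdk6 with the widest H3K4me3 and Tcaim with the narrowest that has an entry. Each is the RefSeq window of 250 bases before and 50 bases after the gene's start on mm10 (GRCm38.p6), written 5′ to 3′ in the direction of the gene. Capitals mark every GC box (GGGCGG, the site read by SP and KLF factors), CCAAT box (CCAAT) and ETS motif (CCGGAAG), on either strand. The windows are chr9:121704980-121705279 for Sec22c (minus strand), chr7:27166753-27167052 for Egln2 (minus), chr12:112674227-112674526 for Akt1 (minus), chr11:62457283-62457582 for Ncor1 (minus), chr5:3343643-3343942 for Cdk6 (plus) and chr9:122805297-122805596 for Tcaim (plus).
Sec22c: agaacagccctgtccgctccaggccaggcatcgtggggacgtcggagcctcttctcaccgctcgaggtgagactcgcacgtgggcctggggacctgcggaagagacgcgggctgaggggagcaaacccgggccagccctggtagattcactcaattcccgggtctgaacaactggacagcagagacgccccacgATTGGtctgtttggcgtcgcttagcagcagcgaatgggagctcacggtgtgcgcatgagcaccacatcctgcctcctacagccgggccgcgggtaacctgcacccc
Egln2: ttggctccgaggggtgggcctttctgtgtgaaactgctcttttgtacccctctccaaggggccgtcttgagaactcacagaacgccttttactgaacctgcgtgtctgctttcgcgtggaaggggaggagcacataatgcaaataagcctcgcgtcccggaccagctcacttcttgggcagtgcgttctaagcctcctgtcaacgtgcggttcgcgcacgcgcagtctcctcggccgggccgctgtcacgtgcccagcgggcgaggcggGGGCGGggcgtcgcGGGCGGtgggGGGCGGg
Akt1: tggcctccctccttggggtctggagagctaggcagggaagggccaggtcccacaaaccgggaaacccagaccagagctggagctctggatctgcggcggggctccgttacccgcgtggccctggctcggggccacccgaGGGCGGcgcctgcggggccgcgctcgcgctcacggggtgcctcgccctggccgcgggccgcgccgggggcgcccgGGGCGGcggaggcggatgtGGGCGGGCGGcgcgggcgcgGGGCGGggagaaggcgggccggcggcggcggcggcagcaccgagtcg
Ncor1: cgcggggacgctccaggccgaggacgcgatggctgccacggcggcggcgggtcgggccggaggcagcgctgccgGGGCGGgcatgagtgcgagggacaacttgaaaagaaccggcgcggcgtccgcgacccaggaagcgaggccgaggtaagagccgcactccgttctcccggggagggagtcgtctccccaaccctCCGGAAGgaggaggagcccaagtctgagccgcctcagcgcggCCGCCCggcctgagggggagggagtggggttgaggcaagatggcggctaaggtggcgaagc
Cdk6: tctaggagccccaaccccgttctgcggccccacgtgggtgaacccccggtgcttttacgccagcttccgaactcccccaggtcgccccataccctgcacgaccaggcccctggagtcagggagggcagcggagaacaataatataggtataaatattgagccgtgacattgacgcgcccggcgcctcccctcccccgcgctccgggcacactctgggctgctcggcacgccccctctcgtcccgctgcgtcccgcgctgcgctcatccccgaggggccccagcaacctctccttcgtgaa
Tcaim: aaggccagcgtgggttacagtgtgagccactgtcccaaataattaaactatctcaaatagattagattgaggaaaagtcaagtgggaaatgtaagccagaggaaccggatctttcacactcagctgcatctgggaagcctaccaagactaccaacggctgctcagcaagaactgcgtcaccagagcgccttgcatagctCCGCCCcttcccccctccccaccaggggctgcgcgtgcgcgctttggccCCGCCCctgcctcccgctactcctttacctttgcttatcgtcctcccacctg
Akt1 had the highest G+C content of the 6 (79.7%) and 5 GC boxes. Ncor1 had 72.3% G+C, 2 GC boxes and 1 ETS motif, whereas Cdk6 had 66.7% G+C and none of the 3 motifs. Tcaim had the lowest G+C content (55.7%) and 2 GC boxes. The summit of the cKO H3K27ac peak lay 85 bp downstream of the start of Sec22c, 200 bp at Egln2, 254 bp at Ncor1, 242 bp at Tcaim, 459 bp at Cdk6 and 514 bp at Akt1.

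The cKO-only promoters were acetylated at a middling level for the cKO list. Their −log10 q, which ranks peaks within that list, had a median of 16.3 (quartiles 11.6 and 22.6) and ran up to 56.7 at Fnta and down to 3.08 at Zfp599. Their median rank was 55.3% from the top, against 30.9% for regions of both genotypes on shared H3K4me3 and 81.6% for cKO-only regions away from it. The regions of both genotypes on shared H3K4me3 ranked lower in the fl list, at a median of 64.4% from the top. Off H3K4me3, regions of both genotypes had a median rank of 34.9% in cKO and 24.4% in fl. A weaker place in the fl list was thus shared by the H3K4me3 regions acetylated in both genotypes. Cutting the lists to equal length does not adjust for this, and its cause was not tested.

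A missing fl peak was not limited to weak cKO peaks. Among cKO regions on shared H3K4me3, the share with no fl peak was 11.3% in the strongest rank decile, 45.2% in the fifth and 89.3% in the weakest. At the same ranks away from H3K4me3 it was 0.327%, 33.7% and 81.5%. The share on H3K4me3 was the higher one in each of the 10 deciles, for example 23.0% against 12.4% in the third and 70.5% against 54.8% in the seventh. In the converse comparison, fl regions without a cKO peak made up at most 3.44% of any decile of the fl list on H3K4me3, and up to 54.0% off it.

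**Figure D1:**
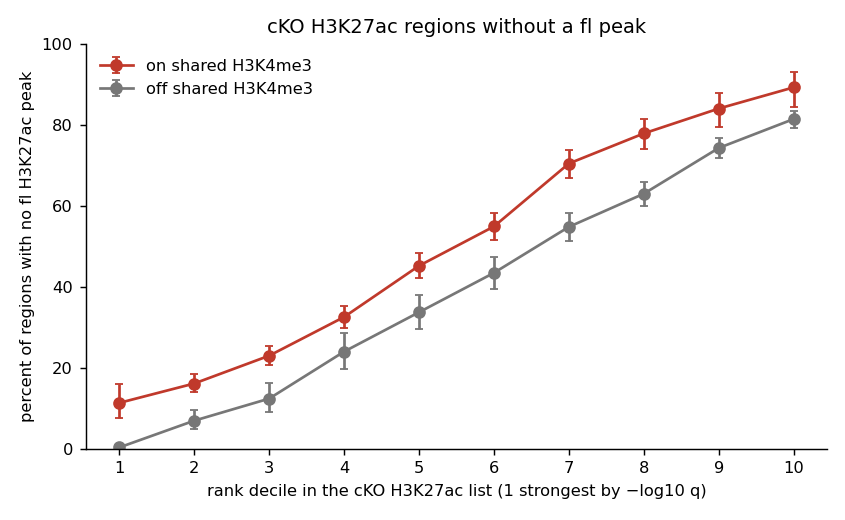
Percent of cKO H3K27ac regions that had no overlapping fl peak (y axis) by decile of rank in the cKO list (x axis, 1 strongest), for regions on and off shared H3K4me3, with 95% exact binomial intervals. The share without a fl peak, which is that of the cKO-only promoters among cKO regions on H3K4me3, lies above the share off H3K4me3 in every decile, with 11.3% in the strongest and 89.3% in the weakest.

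The cKO-only promoters lay near gene starts, with a median summit position close to that of regions acetylated in both genotypes. For 4392 coding genes without a listed start, either annotated end was counted as a start here. Of the 3252, 2972 lay within 1 kb of a coding gene's start (91.4%, 90.4 to 92.3), 72 at an end of a long noncoding gene, 158 inside a coding gene and 50 between genes. Of the regions of both genotypes on H3K4me3, 93.1% lay at a start, as did 46.4% of cKO-only regions off H3K4me3. Without the 1 kb window, 748 of the 3099 H3K4me3 regions at cKO-only promoters held no coding gene start. Of those acetylated in both genotypes, 781 of 4138 held none. Cdkn1a, Slc25a13, Fat4 and Lef1, named below, are cases where the H3K4me3 region holds no start. At the cKO-only promoters the acetylation summit sat a median of 117 bp downstream of the start (quartiles −9 and 231), and 73.4% of the 2395 summits within 1 kb were downstream. In regions of both genotypes the median was 107 bp in cKO (quartiles 4 and 193) and 98 bp in fl. The cKO-only summits were more spread. In the bin centred 150 bp downstream they had 21.9%, against 28.7% for regions of both genotypes in cKO. The H3K4me3 summit of the cKO-only promoters lay further in, at 191 bp in cKO and 197 bp in fl. The distance between the 2 summits in cKO had a median of 167 bp at cKO-only promoters and 130 bp in regions of both genotypes. Nearly all of a cKO-only region was covered by H3K4me3 (median 99.1% of its length), and 1585 of them lay wholly within it (48.7%).

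**Figure D2:**
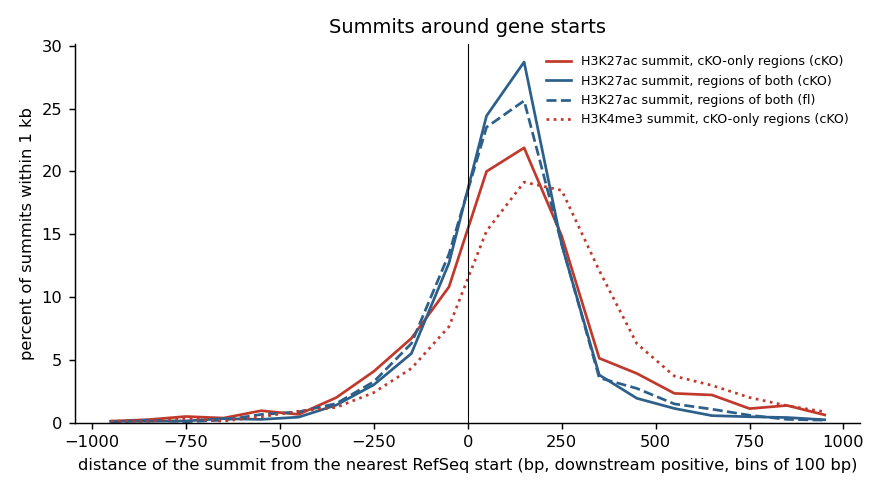
Percent of peak summits (y axis, of those within 1 kb) by distance from the nearest RefSeq gene start in bins of 100 bp (x axis, downstream positive), for cKO-only promoters and for H3K27ac regions of both genotypes, with the H3K4me3 summits of the cKO-only promoters. All 4 curves peak downstream of the start. The H3K27ac medians are close, at 117 bp for cKO-only promoters and 107 bp (cKO) and 98 bp (fl) for regions of both genotypes. The H3K27ac curve of the cKO-only promoters is lower at its peak (21.9% against 28.7% for regions of both in cKO). It is higher in the bins centred 350 bp downstream and beyond.

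H3K4me3 at the cKO-only promoters was similar in the genotypes. The median peak width was 811 bp in cKO and 867 bp in fl, and the ratio of cKO to fl width had a median of 0.956 there. That ratio was 0.960 at H3K4me3 regions acetylated in both genotypes and 0.952 at regions without H3K27ac, so the slightly narrower cKO peaks were a feature of the whole list. The deposited fold enrichment, a ratio to the caller's background within each library, had a median of 9.06 in cKO and 9.46 in fl.

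The class of a promoter was related to width and to fold in different ways. The share acetylated only in cKO was 30.7% in the narrowest decile of cKO H3K4me3 (309 to 444 bp) and 41.5% in the widest (1340 to 3591 bp). By fold it went the other way, at 35.1% in the lowest decile, 39.3% in the third and 23.3% in the highest. Regions acetylated in both genotypes took 26.4% of the narrowest and 50.7% of the widest decile, and 21.2% of the lowest and 66.9% of the highest decile by fold. Wide regions of low fold had the largest share of cKO-only promoters, 876 of 2184 (40.1%), against 32.0% of wide regions of high fold and 29.8% of narrow regions of high fold. With the fl widths in place of the cKO ones, the share was 31.9% in the narrowest and 41.7% in the widest decile. The widest decile in cKO also had a higher median promoter G+C content, 68.1% against 63.0% for the rest. Width and G+C content were not separated. H3K4me3 regions that hold the starts of 2 or more coding genes made up 7.71% of those at cKO-only promoters and 10.9% of those acetylated in both genotypes.

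**Figure D3:**
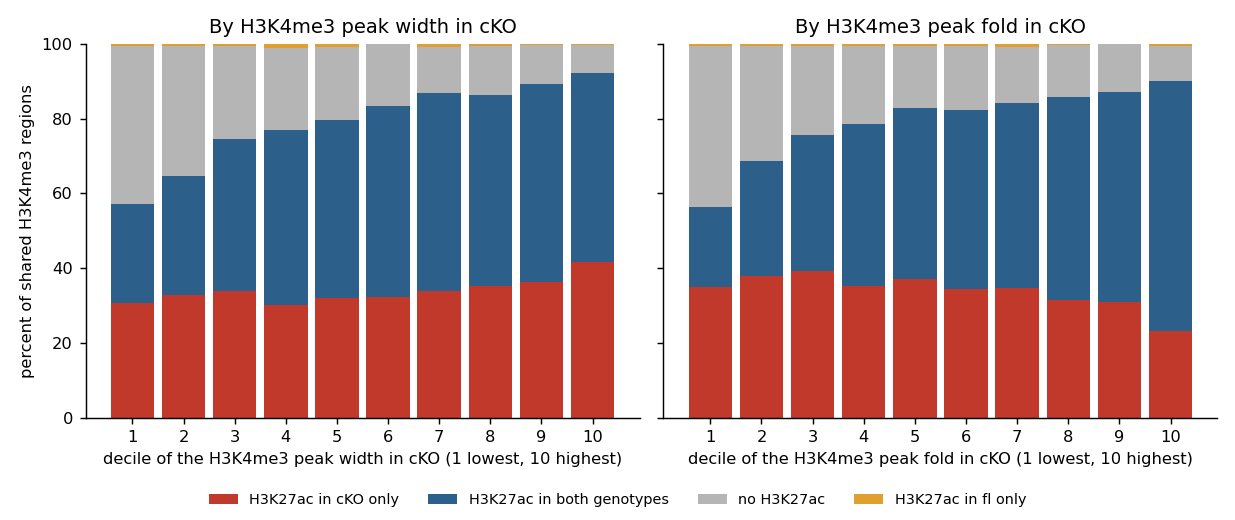
Shared H3K4me3 regions (y axis, percent) split by their H3K27ac class, in deciles of cKO H3K4me3 width (left) and of cKO H3K4me3 fold (right). The share acetylated only in cKO is 30.7% in the narrowest and 41.5% in the widest decile, and 35.1% in the lowest and 23.3% in the highest decile by fold.

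The widest cKO-only promoter belonged to Cdk6, the kinase that moves cells out of quiescence with D cyclins, whose H3K4me3 peak spanned 3591 bp in cKO and 3591 bp in fl. Its cKO H3K27ac peak was weak (fold 4.51, −log10 q 6.16). Next came Msl2, a subunit of the MSL histone acetyltransferase complex (3147 bp in cKO, 3142 bp in fl), and Midn, which carries proteins to the proteasome (3120 bp in cKO, 3252 bp in fl). The H3K4me3 region of Midn also held another H3K27ac region with a fl peak, as did those of 142 of the 3099. Ppp1r9b, the scaffold spinophilin, had 2870 bp in cKO and 3063 bp in fl. These wide promoters all had H3K4me3 folds under the median of the class, at 4.06, 4.91, 4.66 and 4.04 in cKO.

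At the narrow end the H3K4me3 peak was shorter in cKO at each of the 4 genes. Slc25a13, the mitochondrial aspartate and glutamate carrier, had 310 bp in cKO and 590 bp in fl. The widths were 311 bp in cKO and 531 bp in fl at Tcaim, which codes for a mitochondrial protein, 313 bp and 406 bp at the cadherin gene Fat4, and 313 bp and 452 bp at Lef1, a transcription factor of the Wnt pathway. They were picked as the narrowest in cKO, so larger fl values follow from the choice.

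The promoters' base composition differed between the classes. RefSeq windows at cKO-only promoters had a median G+C content of 66.3% (2458 windows), against 65.0% at promoters acetylated in both genotypes, 56.7% at those without H3K27ac and 57.0% over all 20084 windows. The observed-to-expected CpG ratio was 0.872 at cKO-only promoters, 0.849 at promoters of both and 0.708 without H3K27ac. By quintile of G+C over shared H3K4me3 regions, the cKO-only share was 23.5% in the lowest, 27.8%, 29.2% and 32.3% in the next 3, and 57.5% in the highest (54.5 to 60.4), whose windows hold 71.0 to 88.0% G+C. The share acetylated in both genotypes climbed to 66.3% in the fourth quintile and was 40.5% in the highest. With H3K27ac lists of equal length the cKO-only share was still 14.6% in the lowest and 40.5% in the highest quintile. The cKO-only promoters of the highest quintile had a median fold of 9.82 and a median rank of 47.9% in the cKO list, against 10.8 and 51.6% for those of the lowest. G+C content thus moved with the cKO-only call, and its part in the result was not tested.

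**Figure D4:**
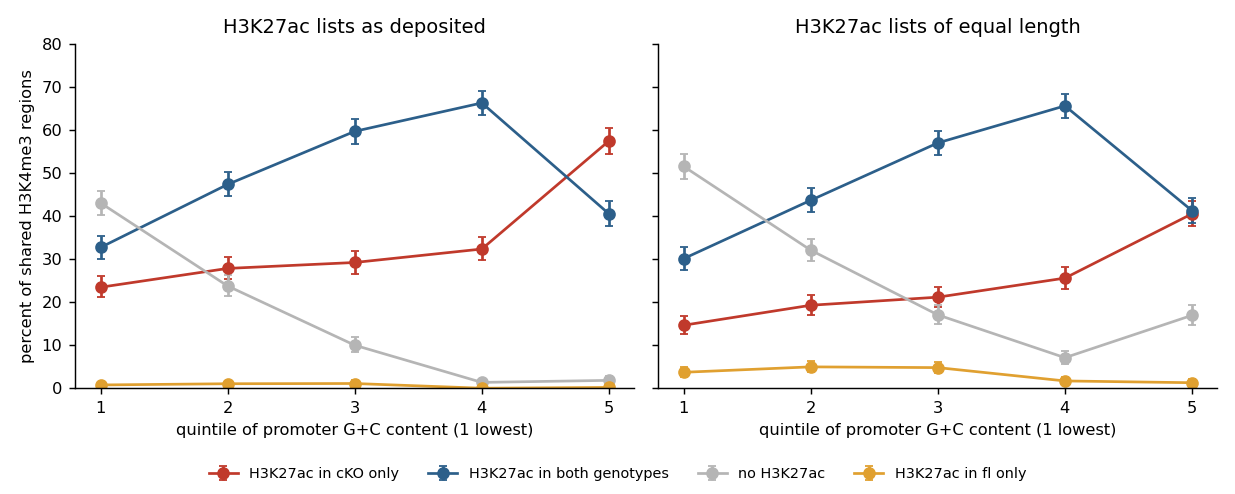
Percent of shared H3K4me3 regions in each H3K27ac class (y axis) by quintile of promoter G+C content (x axis), with the H3K27ac lists as deposited (left) and of equal length (right), with 95% exact binomial intervals. The cKO-only share is 57.5% in the highest quintile as deposited and 40.5% at equal length, against 23.5% and 14.6% in the lowest.

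For most motifs the cKO-only promoters had shares near or below those of promoters acetylated in both genotypes. GC boxes were in 77.8% of the windows at cKO-only promoters, 78.0% at promoters of both genotypes, 51.7% without H3K27ac and 47.0% of all windows. The CCAAT box was in 33.6% at cKO-only promoters and 38.7% at promoters of both, the ETS motif in 20.6% and 24.3%, and the CRE core TGACGTC in 4.84% and 7.09%. For NRF1 (GCATGCG) the shares were 6.67% and 8.80%, and for YY1 (ATGGCG) 18.8% and 20.0%. Over all windows they were 38.1% for the CCAAT box, 11.9% for ETS, 3.92% for the CRE core and 4.50% for NRF1. The TATA box, searched as the letters TATAAA, was in 4.03% at cKO-only promoters, 4.31% at promoters of both and 12.7% of all windows. The RUNX motif (TGTGGT) was in 8.79%, against 10.7% at promoters of both and 14.8% of all windows. The GATA motif, searched as the letters AGATAA, was in 3.62%, against 3.83% at promoters of both and 9.57% of all windows. Promoters without H3K27ac had 7.13% for the TATA box, 14.3% for RUNX, 6.71% for GATA, 46.4% for the CCAAT box and 25.7% for ETS. Motif shares were not adjusted for G+C content, whose median was 66.3% at cKO-only promoters and 57.0% over all windows. Each motif was searched on both strands. No string contains another, copies may overlap (as at Akt1), and a match is a string in the window and not a bound site.

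The 12 strongest cKO-only promoters at coding genes belonged mostly to enzymes, carriers and transport factors used in many cell types. Fnta, the subunit shared by the enzymes that attach farnesyl and geranylgeranyl lipids to proteins, was first (fold 17.3 and −log10 q 56.7 in cKO). Its H3K4me3 peak was 695 bp wide in cKO and 651 bp in fl. Sec22c, which acts in transport between the endoplasmic reticulum and the Golgi, had the highest fold of all 3252 (18.8, −log10 q 53.1). Egln2, a prolyl hydroxylase that acts on hypoxia-inducible factors, had 14.6 (−log10 q 48.1). These 3 ranked in the top 4.32%, 5.44% and 7.01% of the cKO list, where most regions on H3K4me3 also had a fl peak.

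The shared start of Kat14, a subunit of the ATAC acetyltransferase complex, and Pet117, a factor in cytochrome oxidase assembly, had a fold of 18.0. Poldip3 (an RNA-binding protein of mRNA export) had 16.7, Mmaa (vitamin B12 metabolism) 15.8, Pank2 (coenzyme A synthesis) 15.9, Zfand4 18.3 and Slc25a39 (mitochondrial glutathione import) 14.9. Mpp5, a cell polarity scaffold, had a fold of 13.8, Lonp2, the peroxisomal Lon protease, 16.7, and Eea1, which tethers early endosomes, 14.7. H3K4me3 at these 9 starts was between 552 bp (Zfand4) and 1507 bp (Slc25a39) wide in cKO, and 493 bp and 1683 bp at the same genes in fl. None of the 12 had a DEK peak.

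Just inside the list were promoters with cKO peaks near the caller's limit. Zfp599, a zinc finger gene, had a −log10 q of 3.08, Cux1, a homeobox transcription factor, 3.18, the shared start of Fbxo36 and Trip12, both ubiquitin ligase genes, 3.58, and that of Zfp758 and Zfp944 4.13. Cux1 had one of the widest H3K4me3 peaks, at 2830 bp in cKO and 2837 bp in fl. Just outside were promoters of both genotypes with the weakest fl peaks. Ctnna3, Plppr3 and Itga5 had a −log10 q of 26.9, 17.9 and 19.7 in cKO and 2.61 each in fl, and Bahd1 had 10.3 in cKO and 2.62 in fl.

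Among the 6 genes that the study's own work ties to DEK, Akt1, Ccnb2, Cdkn1a, Dek and Ncor1 lay at a cKO-only promoter and Akt2 did not. They come from the study itself, so their count of 5 is no independent evidence of a direction, and 34.2% of all 9154 coding genes with shared H3K4me3 at their start lay at one. Ncor1, the corepressor that brings histone deacetylase 3 to promoters, was the strongest of them (fold 13.6, −log10 q 30.2 in cKO). The same acetylated region also lay within 1 kb of the start of Pigl. The H3K4me3 peak of Ncor1 was 1158 bp wide in cKO and 1167 bp in fl. Dek itself had a fold of 10.6 (−log10 q 20.4), with H3K4me3 of 939 bp in cKO and 1060 bp in fl. A peak at its start does not check the deletion, because the sources used here do not say which exons were floxed.

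Akt1, a kinase of growth factor signalling, had a fold of 8.77 (−log10 q 14.3) and H3K4me3 of 1689 bp in cKO and 1843 bp in fl. Ccnb2, cyclin B2 of mitosis, had a fold of 10.0 (−log10 q 13.8), with 534 bp in cKO and 661 bp in fl. Cdkn1a, which codes for the cell cycle inhibitor p21, was the weakest, at a fold of 6.03 (−log10 q 8.18), with 1635 bp in cKO and 1614 bp in fl. A second cKO-only region inside Cdkn1a, which overlapped the same H3K4me3 region by 1 bp, had a fold of 7.10 (−log10 q 11.1). With lists of equal length, Ncor1, Dek, Akt1 and Ccnb2 stayed among the cKO-only promoters and Cdkn1a did not. H3K4me3 was narrower in cKO at Ncor1, Dek, Akt1 and Ccnb2 and wider at Cdkn1a.

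The AKT and mTOR pathway passes growth signals to protein synthesis. Of its 30 listed genes with shared H3K4me3, 15 lay at cKO-only promoters (50.0%, 31.3 to 68.7), against 34.2% of all genes, and 13 did at equal length (43.3%, against 23.6% of all genes). The 15 held activators and brakes alike. Upstream, they included the PI3 kinase subunits Pik3ca and Pik3cb and the phosphatases of AKT, Phlpp1 and Phlpp2. Around mTOR were Mtor, its partners Rictor and Deptor, the inhibitors Tsc1 and Tsc2 and their target Rheb. Downstream were Rps6, Eif4ebp2 and Gsk3a, next to Akt1. Tsc1 had a fold of 12.7 (−log10 q 30.0) and Mtor 10.9 (28.5), and the folds of the 15 ran between 7.11 at Eif4ebp2 and 12.7. At equal length Pik3ca and Eif4ebp2 were the 2 genes no longer at a cKO-only promoter.

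Genes of histone acetylation and of chromatin had 12 of 26 (46.2%, 26.6 to 66.6) and 19 of 42 (45.2%, 29.8 to 61.3) at cKO-only promoters, against 34.2% of all genes. At equal length they had 7 (26.9%) and 16 (38.1%), against 23.6% of all genes. The first list included the acetyltransferases Kat2b, Kat6a and Kat6b, the deacetylases Hdac3, Hdac5, Hdac7 and Sirt1, the corepressor genes Ncor1, Tbl1xr1 and Sin3a, and the acetyl-lysine reader Brd3. Hdac5 had a −log10 q of 22.2 and Brd3 of 21.6. In the second, the strongest were the Polycomb genes Cbx7 (fold 13.6, −log10 q 37.5) and Rnf2 (11.3, 35.5) and the H3K4 methyltransferase gene Kmt2a (12.7, 33.8). Kmt2a had 1947 bp of H3K4me3 in cKO and 1866 bp in fl, whereas Cbx7 had 395 bp in cKO and 342 bp in fl. The other H3K4 methyltransferase genes in it, named after their values were seen, were Kmt2b, Kmt2c, Setd1a and Setd1b, with folds of 11.5, 8.86, 11.2 and 6.82. The DNA methylation genes Dnmt3a and Tet2 had folds of 8.80 and 10.5.

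Of genes that mark blood stem cell identity, 8 of 20 lay at cKO-only promoters (19.1 to 63.9%), against 34.2% of all genes. At equal length 2 of 20 did, against 23.6% of all genes, so the list lay above the share of all genes as deposited and below it at equal length. Kit, the stem cell factor receptor, had a fold of 9.73 (−log10 q 16.8), Tal1, a master regulator of blood formation, 9.65 (14.8), and Meis1, a partner of HOX proteins, 9.71 (13.4). The others were Mecom, Gata2, Cd34, Hoxb4 and Prdm16, at −log10 q between 4.24 (Prdm16) and 12.2 (Hoxb4). Kit and Tal1 were the 2 left at equal length, so most of this list rests on cKO peaks in the weaker part of the longer list.

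Quiescence and immediate early genes had 11 of 26 at cKO-only promoters (42.3%, 23.4 to 63.1), against 34.2% of all genes, and 7 at equal length (26.9%), against 23.6%. Both shares were near those of all genes. The early response gene Egr1 had a fold of 9.86 (−log10 q 29.8), Tob1, an antiproliferative factor, 10.9 (28.5), and the early response gene Ier2 13.5 (26.3). The rest were Foxo1, Foxo3, Cdkn1a, Junb, Jund, Nr4a2, Tob2 and Klf4. The H3K4me3 peaks of these 11 were wide, with a median of 1897 bp in cKO, against 811 bp at cKO-only promoters in all. Egr1 had 1897 bp in cKO and 2146 bp in fl.

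Of genes of the cell cycle and DNA replication, 8 of 33 lay at cKO-only promoters (24.2%, 11.1 to 42.3), against 34.2% of all genes, and 19 lay near fl acetylation. At equal length 5 did (15.2%), against 23.6% of all genes. Rpa2, which coats single-stranded DNA, had a fold of 16.0 (−log10 q 33.6), E2f3 8.96 (26.6) and the DNA polymerase gene Pold1 11.1 (26.5). The others were Ccne1, Cdk6, Rb1, E2f2 and Rrm1. Of genes of mitosis, 13 of 30 lay at cKO-only promoters (43.3%, 25.5 to 62.6), and 8 at equal length (26.7%). The intervals as deposited of both lists include the share of all genes. Cenpa, the centromeric histone, had a fold of 14.9 (−log10 q 27.3), Cdc16, a subunit of the anaphase-promoting complex, 14.1 (26.1), and cyclin B1, Ccnb1, 12.0 (23.3). The list also held Ccnb2, Cdc20, Aurka, Aurkb, Bub1, Mad2l1, Cenpe, Incenp, Anapc1 and Cdc23. The difference between the 2 lists was not tested.

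Large housekeeping complexes mostly had shares near that of all genes. Of cytosolic ribosomal proteins 21 of 72 lay at cKO-only promoters (29.2%), of the respiratory chain 19 of 62 (30.6%), of the proteasome 11 of 40 (27.5%), of splicing 12 of 44 (27.3%) and of tRNA synthetases 8 of 34 (23.5%), and the interval of each includes 34.2%. At equal length the counts were 16, 11, 10, 10 and 7, which is 10 of 40 for the proteasome and 22.2% for the cytosolic ribosome, against 23.6% of all genes. Mitochondrial ribosomal proteins had 16 of 74 (21.6%, 12.9 to 32.7), and 7 of 74 at equal length (9.46%). The cKO-only promoters among these were narrow, with a median H3K4me3 width of 520 bp in cKO, against 1041 bp for the cytosolic ribosomal genes. Among them, Rps21 had a fold of 15.1, Rpl27 14.5 and Rpl36 13.6. Of the respiratory chain, the complex I subunit Ndufv2 had 14.7 (−log10 q 39.0), Atp5g2, a subunit of ATP synthase, 12.1, and the Rieske protein gene Uqcrfs1 11.8. Mrps35 had a fold of 14.2, the shared start of Mrpl48 and Rab6a 10.7, and Mrpl23 11.8. Of the proteasome, Psmd1 had 12.5, Psmc6 12.5, and Psmc2 with its neighbour Dnajc2 11.4. The splicing genes Snrpf and Sf3b4 had 14.2 and 14.0, and the tRNA synthetases Gars, Aars and Farsb 16.3, 14.7 and 14.5.

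Chaperones had the lowest share as deposited among the lists with at least 20 genes, 7 of 39 (17.9%, 7.54 to 33.5). The share of all genes was 34.2%. At equal length chaperones had 15.4%, against 23.6% of all genes, and the mitochondrial ribosome, HSC identity and cell cycle lists were lower. In the chaperone list, 31 of the 39 (79.5%) lay near a region with a fl H3K27ac peak, against 50.5% of all genes. Hsp90aa1, the inducible HSP90, was the strongest exception, with a fold of 13.1 (−log10 q 36.6), and the heat shock factor gene Hsf2 had 11.4 (26.5). DNA repair genes had 19 of 55 (34.5%), led by the excision repair gene Xpa (fold 14.9, −log10 q 34.5) and with the damage-sensing kinase gene Atr among them (14.8, 32.3). Autophagy and lysosome genes had 12 of 39 (30.8%), among them Atg4b (fold 10.9), Atg3 (12.3) and Atg9a (14.5), which each lie beside a second gene start. In the p53 and apoptosis list 7 of 28 did, with Apaf1 of the apoptosome at 11.6, the survival gene Bcl2 at 13.0 and its opponent Bbc3 (PUMA) at 6.19. Interferon and inflammation genes had 9 of 33 (27.3%), with the NF-kB subunit Relb at 14.5, the cytokine signalling brake Socs1 at 10.4 and the NF-kB inhibitor Nfkbia at 10.2. Cilium genes had 7 of 25 (28.0%), with Kif3b at 13.0, Ift80 at 11.4 and Ift88 at 12.9. For the DNA repair, autophagy, p53, interferon and cilium lists the interval of the share includes the 34.2% of all genes.

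**Figure D5:**
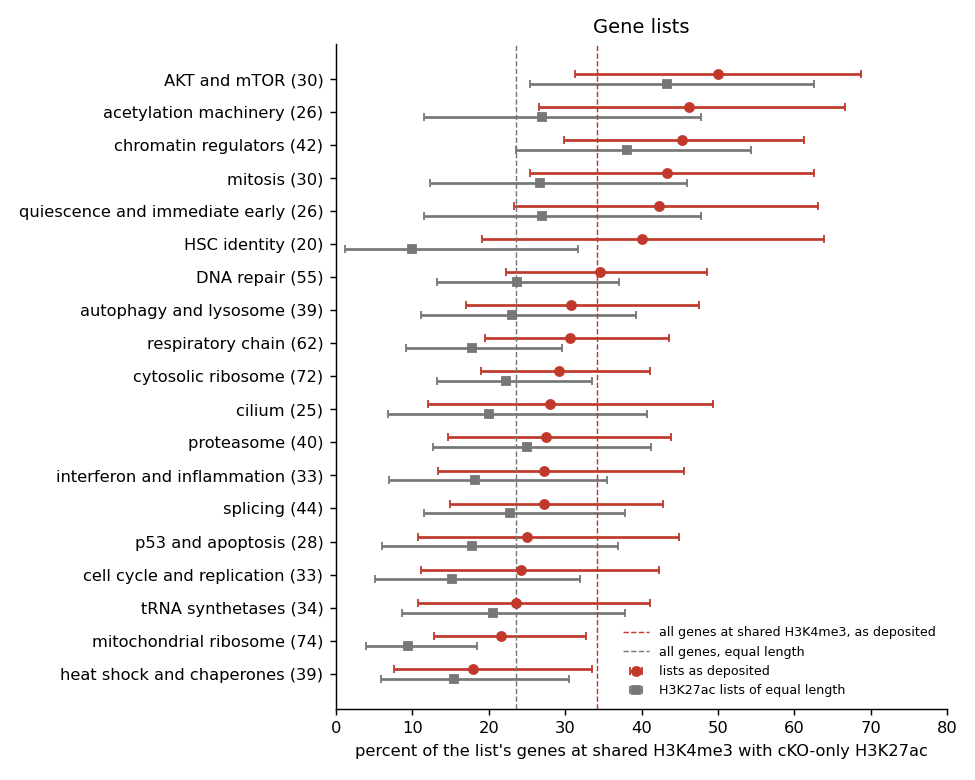
Share of each list's genes with shared H3K4me3 that lay at a cKO-only promoter (x axis, percent), for lists with at least 20 such genes (number in brackets), with 95% exact binomial intervals. Red circles are the H3K27ac lists as deposited and grey squares lists of equal length, with dashed lines at the shares of all genes (34.2% and 23.6%). As deposited, AKT and mTOR genes have the highest share (50.0%) and chaperones the lowest (17.9%), whereas the mitochondrial ribosome is lowest at equal length (9.46%). HSC identity genes have 8 of 20 as deposited and 2 of 20 at equal length.

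The gate was checked against markers of other cells. Few such genes had H3K4me3 in both genotypes at all: 4 of 24 myeloid, 6 of 26 lymphoid, 6 of 24 erythroid and megakaryocyte, 5 of 18 endothelial, 0 of 18 stromal and 1 of 24 non-blood genes. Of all coding genes 9154 of 20661 had it, and of the HSC identity list 20 of 30. At cKO-only promoters were the myeloid factors Cebpa (fold 7.30, H3K4me3 2033 bp in cKO and 2671 bp in fl) and Cebpb (6.85), the lymphoid factors Satb1 (11.9) and Ikzf1 (10.4), the erythroid factor Tal1, and the endothelial genes Egfl7 (10.4) and Sox18 (6.48). That is 2 of 4 myeloid, 2 of 6 lymphoid, 1 of 6 erythroid and megakaryocyte and 2 of 5 endothelial genes. The interval of each of these shares includes the 34.2% of all genes. Several of these factors are also active in LSK cells. With peak lists alone, more cells of a type and a stronger mark per cell cannot be told apart.

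Few of these promoters carried a called DEK peak in fl HSC, but the number of peaks called was small and uneven between replicates. With 2054 peaks in replicate 1, 2111 in replicate 2 and 6147 in replicate 3, list length bounds every share given here. A missing call is thus no sign that DEK is absent from a promoter. None of the 3252 had a DEK peak in replicate 1, 2 had one in replicate 2 and 5 in replicate 3, a mean of 0.0718% ± 0.0774 (SD, n = 3). No region had one in more than 1 library, and 0 of 3252 allows a share of up to 0.0923% (3 counts). Regions of both genotypes on H3K4me3 had a mean of 0.117% ± 0.0234, cKO-only regions off H3K4me3 0.724% ± 0.267, and regions of both genotypes off H3K4me3 4.80% ± 4.67 (SD, n = 3 each). In any library the shares were 0.215%, 0.304%, 1.59% and 10.9% in the same order. DEK was profiled in HSC and H3K27ac in LSK cells, so the lists compare a subset with the wider gate.

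The 5 gene starts with a DEK peak were Mtfr1l, a mitochondrial fission regulator (replicate 2, fold 3.61), Rps6 (replicate 3, fold 4.47), the shared start of Coq8b and Itpkc (replicate 3, 3.58), Ccnb2 (replicate 3, 3.58) and Cdkn1a (replicate 3, 5.04). The peaks at Ccnb2 and Cdkn1a were 1233 bp and 1193 bp wide, against a median of 226 bp in that list, and their −log10 q was 2.04 and 3.37. All 5 had a −log10 q under 5. Row names of the replicate 3 list carry a Flag stem in place of the DEK stem of the other lists, so its antibody is not certain. The H3K9ac lists of HSC were short, with 3431 peaks in cKO and 2172 in fl, which bounds the shares. H3K9ac peaks lay on 23 of the cKO-only promoters in cKO (0.707%) and on 15 in fl (0.461%). In regions of both genotypes on H3K4me3 the shares were 1.01% in cKO and 0.538% in fl, and off it 3.14% and 2.22%. A missing H3K9ac call is thus no sign that a promoter lacks the mark.

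Few of the 3252 regions lay away from coding gene starts. The 3 strongest, picked after their values were seen, lay within the gene Zfp710 at chr7:80026800-80027402 (fold 13.7), at an end of a long noncoding gene at chr4:8647129-8647661 (fold 17.4, −log10 q 47.5) and within Dynll2, a dynein light chain gene, at chr11:87986962-87987760 (fold 13.0, −log10 q 39.9). The first had H3K4me3 of 784 bp in cKO and 1576 bp in fl, and the second 658 bp in cKO and 668 bp in fl. Of the promoters whose H3K4me3 region held the most gene starts, 3 are named, and how many there are was not counted. Each held the starts of 3 genes, and the acetylation reached all of them within 1 kb: Atf5, Il4i1b and Nup62 (fold 13.3), Shld3, Trappc13 and Trim23 (12.8), and Rnf121, Xndc1 and Xntrpc (12.3). In such places the gene that the mark serves cannot be told apart. The overlap with H3K4me3 was under 50 bp in 17 of the 3252 regions, among them a second region inside Cdkn1a (1 bp) and one at Nfil3, a transcription factor gene (2 bp).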

How the data were processed

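The authors deposited 1 narrowPeak list per library for 9 CUT&Tag libraries in 7 groups. Bowtie2, Picard, MACS2 and the mm10 build are listed per the submitters' processing notes. Versions, step order, thresholds and any control track are not given there. The deposited score, fold enrichment, −log10 p and −log10 q of each peak are the authors' values, and were used to describe, rank or filter peaks within a list. In the DEK lists, 11 rows that break the order or score rules of the other rows were left out.

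Regions, members and gene lists were chosen with earlier results of these data known. Peaks overlapping by at least 1 bp were joined. Gene starts came from the RefSeq promoter table (GRCm38.p6) for 17491 coding genes, and both annotated ends stood in for the start of 4392 others, all those of chromosome 18 among them. Of 987 list genes, 984 were found. Named genes were the 12 highest −log10 q, the 4 widest, 4 narrowest and 4 lowest, the study genes, up to 3 per list, up to 5 with a DEK peak and 3 at the most gene starts. Some genes that the rule selects are not reported here. Joining and counting were tested on simulated peaks. Python 3.11.15 with numpy 2.4.6 and pandas 2.3.3 was used. Shares have 95% Clopper-Pearson intervals. Alternatives were equal list lengths, peak thresholds, joining gaps, stricter overlap, gene windows and the DEK libraries used. Groups come from the labels, and nothing says that the 3 DEK libraries came from separate animals.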

Additional observations from a re-analysis of the deposited data

How the results depend on the processing

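Of 89 alternatives over the counts, shares and medians above, 61 left the value within its counting interval or within 1.5 times the count, and 28 moved it. For 2 gene lists with at least 20 genes the side of the share over all genes changed: HSC identity lay above it as deposited and below it at equal length, and the proteasome below it as deposited and above it at equal length (10 of 40 genes). So did it for 2 small marker lists, lymphoid (2 of 6 genes in both settings) and endothelial (2 of 5 as deposited and 1 of 5 at equal length). With H3K27ac lists of equal length there were 2095 cKO-only promoters on 22.6% of the shared H3K4me3 regions, and 93.6% lay at a gene start. Their median H3K4me3 width was 834 bp. Their median rank was 43.5% from the top of the full cKO list, since ranks were not recounted in any alternative. These moves follow from dropping the weaker cKO peaks. At that length the gene lists of HSC identity (10.0%), respiratory chain (17.7%) and mitochondrial ribosome (9.46%) fell below their intervals as deposited, and the others did not. A −log10 q of at least 5 for both marks gave a share of 36.6% and a rank of 53.6%, and one of at least 10 for H3K4me3 gave 876 bp and 53.2%. Joining H3K27ac peaks within 500 bp gave 32.7% and 53.8%, and within 1000 bp 32.3%, 791 bp and 53.2%. Leaving out H3K4me3 regions that also hold fl acetylation gave 32.3% and 789 bp. With windows of 500 bp, 2 kb and 5 kb, 87.0%, 93.1% and 94.5% lay at a gene start. GC boxes were in 80.1% of windows whose start lies inside the H3K27ac region.

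The share with a DEK peak lay between 0.0615% (without replicate 3) and 0.215% when 1 library was left out, so it rests on replicate 3. It was 0.0% for DEK peaks of at least 2 libraries and 0.0308% for a −log10 q of at least 5. At that limit H3K9ac was at 0.0923% in cKO and 0.0% in fl. Except where fewer peaks follow from the rule, the cause was not tested. No paired analysis was possible because each genotype has 1 library per mark. Unknown depth limits every comparison of cKO with fl, and a missing fl peak is a missing call, not a measured absence of acetylation.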

Other observations

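Gene families with at least 15 genes at shared H3K4me3, grouped by the stem of their names, differed in how many lay at a cKO-only promoter, against 34.2% of all genes. The stems with the highest shares were Gpr (8 of 15 genes, 53.3%, mostly G protein-coupled receptors), Lrrc (11 of 22), Zdhhc and Rnf (26 of 54, 48.1%, RING finger proteins). Next were 16 of 34 Ube genes (47.1%, ubiquitin-activating and conjugating enzymes), 12 of 26 Fbxo genes (46.2%, F-box proteins), 9 of 20 Mettl genes and 16 of 36 Usp genes (44.4%, deubiquitinases), whereas Klhl genes had 7 of 21 (33.3%). Zdhhc genes, which attach palmitate to proteins, had 9 of 18, and Rab genes, which direct vesicle traffic, 23 of 53 (43.4%). Below it were 2 of 20 Cox genes (cytochrome oxidase), 3 of 21 Gtf genes (14.3%, general transcription factors), 6 of 32 Vps genes (18.8%, endosomal sorting) and 6 of 31 Ddx genes (19.4%, RNA helicases). The 260 Zfp genes, mostly zinc finger factors, had 76 (29.2%) at a cKO-only promoter and 32.3% near fl acetylation, against 50.5% of all genes. There were 51 such stems, these were named after their values were seen, and no test was run.

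Over the chromosomes the share of shared H3K4me3 regions acetylated only in cKO was lowest on chromosome 11 (27.6%) and highest on chromosome 4 (37.9%).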
